A study of Drosophila melanogaster with 2 samples.

Results

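Binding of GFP-tagged Mio, the older name of Mondo, was mapped in Drosophila melanogaster by chromatin immunoprecipitation and sequencing (ChIP-seq), from whole larvae at the wandering stage of the third instar. The peaks described here are those of the optimal list that lie inside introns and away from gene starts. A summit was kept when it lay more than 500 bp from every annotated start (transcription start site, TSS) of protein-coding transcripts, inside a protein-coding gene, and in none of that gene's coding or untranslated exons. This rule uses position only. It kept 335 peaks of the 1117 nuclear peaks in the optimal list, which is 30% (95% Wilson interval 27.4 to 32.7%). The list held 1146 peaks with the 29 mitochondrial ones. Of the other nuclear optimal peaks, 637 lay within 500 bp of a TSS and 145 were distal but outside introns. The intervals given throughout reflect counting error alone.

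The samples form 1 group of 2 biological replicates, which the labels number 5 and 1, each of male and female larvae pooled. The animals belong to 1 transgenic line that carries Mio joined to GFP at its C-terminus, and chromatin was precipitated with an antibody against GFP. There was no second genotype or treatment, and the replicates share a control. No statistical test was therefore made, and values are given as counts, shares and medians. In chromatin from whole animals, strong binding in a few cells and weak binding in many cannot be told apart, and peak lists hold no expression levels with which the labelled source could be checked. Read depth is unknown.

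Mondo belongs to the transcription factors with a basic helix-loop-helix and a leucine zipper and is the fly relative of the vertebrate sugar-responsive factors MondoA and ChREBP. With its partner Mlx (bigmax in flies) it is known to bind E-boxes, CACGTG, and pairs of them called carbohydrate response elements, and to activate genes of sugar and lipid metabolism. Introns of Drosophila genes often hold enhancers and alternative promoters, and first introns of developmental regulators are known for being long.

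The peaks are introduced by their sequences. The E-box set comes first, shown because CACGTG was found within 50 bp of the summit in 2 of the 335 peaks. Both lie in the first intron of ush, and both also hold a paired E-box, counted where 2 copies of CACGTG stand 5 bp apart with at most 2 mismatches over the pair. The summit of the first, 509 bp from the TSS of cbt, lies at the same time in a 5′ untranslated exon of that gene. Capitals mark the pair, and the exact CACGTG is its right copy. The sequences are on the plus strand, from the Release 6 (dm6) reference.
ush, chr2L:479177-479206: gctgtgCATGCGGTGTTCACGTGaaagcgt
ush, chr2L:481269-481298: gttgacCTCATGATGTTCACGTGaacattt

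The next set shows peaks with ACAGTG within 50 bp of the summit, the hexamer that rose most over intronic sequence in general. Capitals mark the hexamer, and each sequence is written 5′ to 3′ so that it reads ACAGTG. The 8 strongest such peaks are given on the strand named, leaving out those on the arm that carries bin3 (signal 163) and KCNQ (140), whose sequences are not printed.
Lk6, chr3R:11761017-11761046, plus: gagcatagttttACAGTGgcacataaacta
LpR2, chr3R:25738247-25738276, plus: ggaacttttattACAGTGtaagcagaggcg
CG32767, chrX:5083826-5083855, minus: gggccccatcgcACAGTGggacgcgcagac
CG1737, chrX:11351466-11351495, plus: tatcagtggaatACAGTGggccctggctac
Raf, chrX:2322006-2322035, plus: ttgggctgaagtACAGTGaggcttgcaggg
CG17834, chr2L:8534876-8534905, minus: cgcagtttatagACAGTGttaattttaata
CHES-1-like, chrX:7700454-7700483, minus: actgtttggcgcACAGTGggcactcgcttg
tara, chr3R:16237026-16237055, minus: aacattttatgtACAGTGtgcacaggcggc

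The last set is from the summits, where mean GC content was lowest. The 30 bp at the summits of the 4 strongest peaks are shown on the strand of the host gene, with the summit base in capitals.
ush, chr2L:481101-481130, plus: tcgttactaaattaAtgtcattccatccgt
CG11050, chr2L:6612692-6612721, plus: gcttaaaattaataCaagattagattttgt
CG32772, chrX:4910373-4910402, plus: aactaacaaaacagAtctaactttgcttgg
CG32486, chr3L:3060772-3060801, minus: tattgactctctagcCtctaataatagtag
Within 50 bp of the summit, GC content was 34.7% at ush, 21.8% at CG11050, 25.7% at CG32772 and 46.5% at CG32486, beside a mean of 40.2% over windows of that length in all distal intronic sequence. The first 3 lay below that mean and CG32486 above it.

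The deposited signal value of the 335 peaks, on a scale that the files do not name, ran from 73.7 to 723, with a median of 97.1 and quartiles of 82.4 and 130. The promoter peaks had a median of 98.1 (84.1 and 137), and the distal peaks outside introns one of 96.4 (82.1 and 127). The medians and quartiles of the 3 classes thus lay close together, while the highest signals were 723, 770 and 535. The peaks sat on the X (77), 3R (78), 2L (72), 2R (54) and 3L (54), with 0 on chromosome 4 and 0 on Y. The X held 23% of them (95% interval 18.8 to 27.8%) and 13.5% of the promoter peaks (11.1 to 16.4%). It held 16.6% of the distal peaks outside introns (11.4 to 23.4%) and 18.4% of all distal intronic sequence. Of intronic peaks in the relaxed pooled list that met the same rule outside the optimal list, 21.3% were on the X (20.5 to 22.0%). Signals of these relaxed peaks ran from 14.1 to 73.55, all below the lowest of the 335, 73.68. Every comparison with them is therefore also one between stronger and weaker peaks.

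The strongest peak, at position 481115 of 2L in the first intron of ush, had a signal of 723 and ranked 2 among nuclear optimal peaks, 5 in replicate 5 and 1 in replicate 1. The gene ush encodes a zinc finger cofactor of GATA factors. At 1427 bp the nearest TSS belonged to a neighbour, cbt, which encodes a zinc finger factor and is a known target of Mondo and Mlx. Genes known by CG numbers hosted the next 3 peaks. CG11050 had a signal of 549 and ranks of 3 and 13 in replicates 5 and 1, CG32772 a signal of 546 and ranks of 6 and 11, and CG32486 a signal of 535 and ranks of 11 and 6. These 4 peaks were among the 13 strongest of both replicates.

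Next in order, Lk6, which encodes a kinase of the translation initiation factor eIF4E, had a peak of signal 449 in its first intron, 957 bp from its nearest TSS, at ranks of 28 and 8 in replicates 5 and 1. In osa, which encodes a subunit of the Brahma chromatin remodelling complex, the peak had a signal of 420 and lay in intron 4, 13939 bp from the nearest TSS, at ranks of 20 and 24. The next host genes in order of signal were CG9663 (376) and Zw (354). Zw, glucose-6-phosphate dehydrogenase of the pentose phosphate pathway, held its peak in the first intron, 1119 bp from the nearest TSS, at ranks of 46 and 25.

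The remaining hosts among the 25 strongest peaks were of several kinds. Genes of chromatin and transcription were HmgD and HmgZ, overlapping genes of HMG-box proteins that share a peak of signal 352, the transcription factor gene Adf1 (303), Tlk, a kinase of chromatin assembly (344), and Trl, which encodes GAGA factor (241). The ecdysone-induced nuclear receptor gene Eip75B had a signal of 262 and the nuclear receptor gene Hr4 one of 238. Signalling genes were norpA, the phospholipase C of phototransduction (323), Raf, the kinase above MEK in the Ras pathway (258), and for, a cGMP-dependent kinase (222). The others were the lysophospholipid acyltransferase gene LPCAT (328), the RNA-binding protein gene mub (255), the cell polarity gene crb (221), CG13917 (265), CG3726 (245), CG32264 (243) and CG4496 (222). All 25 of these peaks were among the 1117 strongest of each replicate. Of the 25, 13 lay in a first intron, and the nearest TSS belonged to the host for 22.

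The 335 peaks lay in 280 host genes, which is 2.31% of the 12127 protein-coding nuclear genes that have any distal intronic sequence. Of the peaks, 17 lay in more than 1 host, since Drosophila genes overlap. A single peak was held by 225 hosts, 2 peaks by 45, 3 by 6, 4 by 3 and 7 by 1. Hosts with 2 or more peaks thus numbered 55, and they held 122 of the 335 peaks.

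Length of the introns went with hosting. Distal intronic sequence was counted for each gene as the bases outside its own exons and more than 500 bp from every protein-coding TSS. Its median was 13460 bp in hosts, 29327 bp in hosts with 2 or more peaks, and 227 bp in all 12127 genes that had any. Of the 8488 genes with under 1 kb of it, 0.130% were hosts (95% interval 0.0724 to 0.232%), and of the 237 genes with 50 kb or more 19.0% were (14.5 to 24.5%). The density of peaks went the other way, from 19.2 per Mb in genes with 1 to 2 kb to 3.20 per Mb in genes with 50 kb or more, beside 6.06 per Mb over all 55.3 Mb. Genes under 1 kb, with 11 peaks, had 7.18 per Mb.

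**Figure D1:**
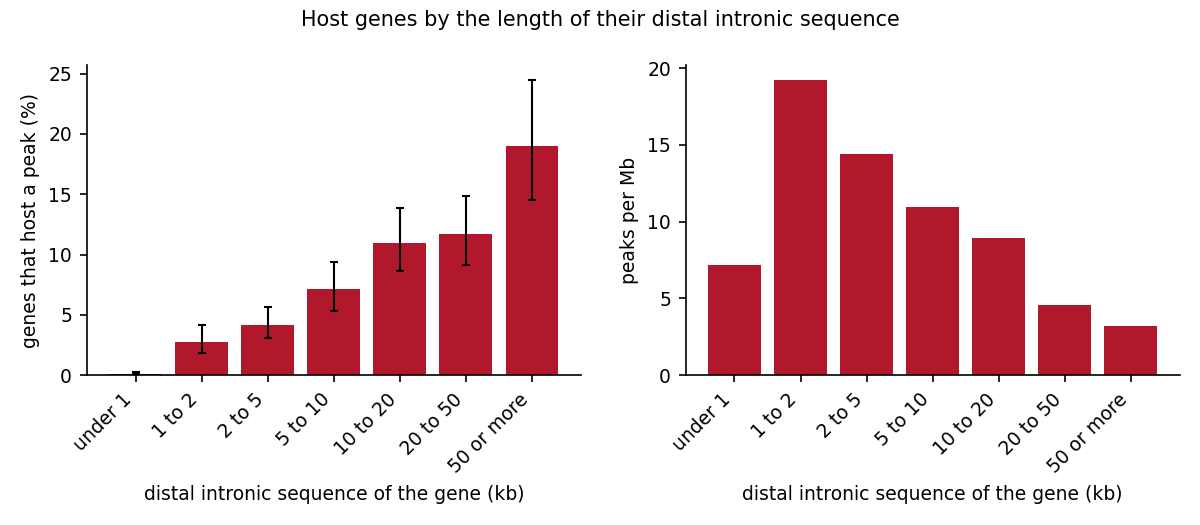
Share of protein-coding genes that host a distal intronic optimal peak (left, in percent, with 95% Wilson intervals) and peaks per Mb of distal intronic sequence (right), by the length of that sequence in kb. The share rose from 0.130% to 19.0% along the length classes, and the density fell from 19.2 to 3.20 per Mb from the class of 1 to 2 kb on.

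Hosts also had peaks at their own promoters. Of the 280 hosts, 53 had an optimal summit within 500 bp of one of their TSSs, which is 18.9% (95% interval 14.8 to 23.9%), beside 6.09% of all protein-coding nuclear genes. The 53 are 6.23% of the genes with such a promoter peak. If each host had a promoter peak as often as all genes of its intronic length class, 24.6 would have had one. Hosts with a promoter peak had a median of 3 annotated start sites and those without one a median of 2, and the part that the number of start sites has in this was not tested.

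The gene with the most peaks was ush, with 7 in 6 distinct intervals. Their signals were 723, 367, 203, 122, 121, 79.7 and 76.2, over 51244 bp. Of these, the first 3 and the last lay closer to a TSS of cbt than to one of ush, and the others closer to ush. Of the 7, 4 were among the 1117 strongest peaks of both replicates. The peak of signal 203 ranked 25 in replicate 5 and had no matched peak within 100 bp in replicate 1. Its summit, at 481318, lies in the same interval as the strongest peak, whose summit at 481115 ranked 1 in replicate 1.

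Raf held 4 peaks, with signals of 258, 155, 112 and 96.7 over 25604 bp, and 3 of them were among the strongest 1117 of both replicates. ACAGTG lay within 50 bp of the summit of the second and the fourth. The forkhead factor gene CHES-1-like also held 4, with signals of 123, 91.1, 87.0 and 76.9 over 8609 bp. None of the 4 was among the strongest 1117 in both replicates. The third gene with 4 was sbb, which encodes a zinc finger corepressor, with signals of 107, 96.2, 84.1 and 77.6 over 36867 bp, and 2 of these were among the strongest in both.

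HmgD and HmgZ shared their 3 peaks, with signals of 352, 127 and 103 over 2841 bp, of which 1 was among the strongest in both replicates. The nuclear receptor gene Hr4 held 3 peaks over 4179 bp, with signals of 238, 151 and 128, and all 3 were among the strongest in both. So were the 3 in simj, a subunit gene of the NuRD complex, with signals of 134, 121 and 90.8 over 17299 bp. The adhesion gene kirre held peaks of 114, 98.3 and 77.9 over 266677 bp, a pair of which lie in CG32795 too, and the ecdysone-induced Ets factor gene Eip74EF held peaks of 85.3, 79.6 and 78.1 over 32930 bp, none of them among the strongest in both replicates. Signal in the genes with several peaks thus reached from the top of the list to its lower end.

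**Figure D2:**
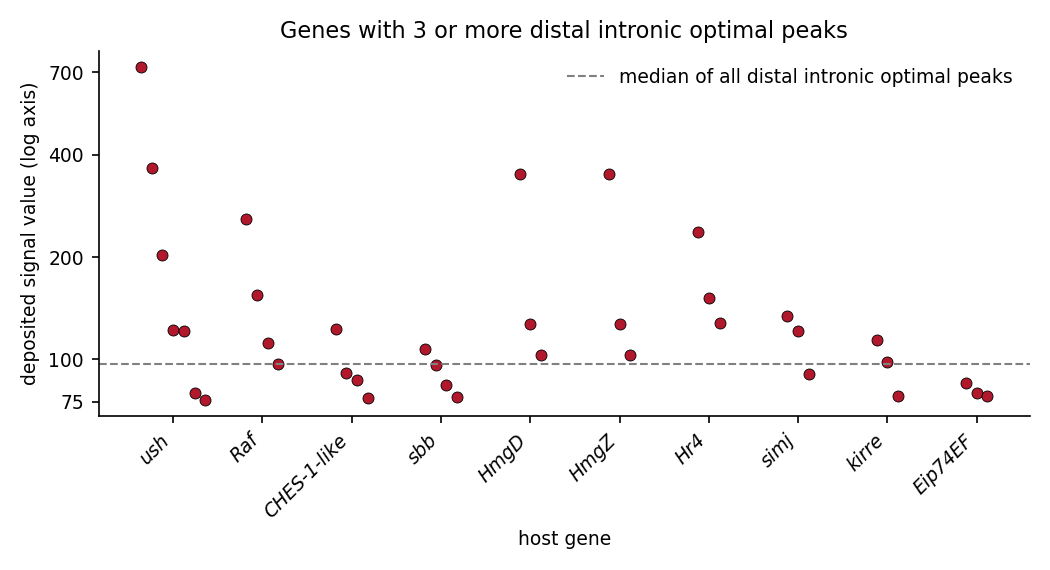
Deposited signal value, on a log axis, of each distal intronic optimal peak (points) in the 10 host genes with 3 or more of them, with the median of all 335 peaks (97.1) as a dashed line. The 7 points of ush run from 723 to 76.2, all 3 of Hr4 lie above the line and all 3 of Eip74EF below it. HmgD and HmgZ overlap and share their points.

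Summits in the 45 genes with 2 peaks lay a median of 4794 bp apart, from 199 bp in Prps to 60876 bp in fz. Those genes, named for these extremes after their values were seen, encode phosphoribosyl pyrophosphate synthetase and a Wnt receptor. Of all neighbouring pairs of summits on an arm, 15 were within 1000 bp. The 335 summits belonged to 333 distinct peak intervals, counted as distinct when their ends differed. Such intervals could overlap, as the 2 of Prps did (9692775 to 9693134 and 9692974 to 9693333).

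Gene groups of larval regulation were read through 26 lists, each set beside the 2.31% above and the number of hosts it would hold at the rates of its members' intronic length classes. The lists were chosen with earlier results of these data known, so their counts and intervals are descriptions. Their shares are over all matched symbols, while the 2.31% is over genes with distal intronic sequence. On the salivary gland list, for example, 9 of 13 matched genes had such sequence. The ecdysone response, the steroid programme that ends larval growth, had 10 hosts among 23 genes (43.5%, 95% interval 25.6 to 63.2%), where length classes alone would give 2.56. Its 18 peaks had a median signal of 95.5, beside 97.1 for all 335. Besides Eip75B, Hr4 and Eip74EF, the hosts were the nuclear receptor genes Eip78C (signal 180), Hr39 (138) and EcR (94.8 and 88.1). They also included the ABC transporter gene E23 (115.4 and 87.6), the cyclin-dependent kinase gene Eip63E (102), the zinc finger gene crol (96.1) and the coactivator gene tai (79.0 and 75.6).

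The peaks of the ecdysone receptor gene itself lay just below the median signal of all 335. The EcR peak at 94.8 held rank 1699 in replicate 5 but 418 in replicate 1, and that at 88.1 had ranks of 1078 and 932. The crol peak was matched at rank 723 in replicate 1 and had no match in replicate 5.

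On the list of basic helix-loop-helix leucine zipper genes and genes set beside them, 4 of 10 were hosts (40%, 16.8 to 68.7%, beside 0.572 by length class). The hosts included crc, the fly ATF4 gene (signal 139), whose product has a leucine zipper but no helix-loop-helix. The others were Mnt, a repressor that pairs with Max (85.9 and 82.2), crp, the fly AP-4 gene (79.8), and Myc (74.9). The median signal over the 5 peaks of the 4 hosts was 82.2, and 4 of the peaks lay below the median of all 335. Myc held rank 4703 in replicate 5 but 433 in replicate 1, and crp had ranks of 4012 and 327.

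Nutrient signalling genes of the insulin, TOR and AMPK list had 5 hosts among 25 (20%, 8.86 to 39.1%, beside 0.950 by length class), with a median signal of 103. After Lk6 they were InR, the insulin receptor gene (112), REPTOR, a factor acting below TORC1 (103), ImpL2, a secreted insulin-binding protein gene (97.6), and the kinase gene Akt (92.4). Of 19 genes of the sugar response linked to these factors, Zw was the 1 host (5.26%, 0.935 to 24.6%, beside 0.679 by length class). No glycolysis gene of 13 was a host, against 0.110 by length class, and 5 of the 13 had a promoter peak. None of 17 cytosolic ribosomal protein genes was one either, against 0.0220, and 8 of the 17 had a promoter peak. These 2 groups have short introns, with medians of 211 and 271 bp of distal intronic sequence. A promoter peak was found at 6.09% of all protein-coding nuclear genes, and at 5.60% of those with under 1 kb of distal intronic sequence. No interval was computed for the promoter counts of the lists.

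Chromatin genes of the Polycomb and trithorax group list had 5 hosts among 22 (22.7%, 10.1 to 43.4%, beside 0.661 by length class), with a median signal of 97.5 over 9 peaks. Along with osa (420 and 75.7) and Trl (241 and 81.7) these were Psc (108) and ph-p (100 and 90.4), subunit genes of Polycomb repressive complex 1, and trx (97.5 and 79.6), a histone methyltransferase gene. The BMP and activin list also had 5, among 17 genes (29.4%, 13.3 to 53.1%, beside 0.806), with a median of 95.7. They were wit, a type II receptor gene (194), the inhibitory Smad gene Dad (110), the cofactor gene shn (96.4 and 84.3), the ligand gene dpp (94.9) and the type I receptor gene tkv (75.8).

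Further signalling lists held fewer hosts. The Notch list had 3 hosts among 11 matched symbols (27.3%, 9.75 to 56.6%, beside 1.07), namely the ubiquitin ligase gene neur (112), the coactivator gene mam (105 and 98.2) and the protease gene kuz (101.1). The ligand gene Delta also hosted a peak (75.9), but its listed symbol, Dl, had no match and was not counted. EGFR and FGF signalling had 3 of 17 (17.6%, 6.19 to 41.0%, beside 1.44), which were S (101.3), aop (89.8 and 87.7) and pnt (79.4), the last pair being Ets factor genes of opposite action. The clock list had 2 of 12 (16.7%, 4.70 to 44.8%, beside 0.788): vri, a bZIP repressor gene (178 and 169), and dco, the casein kinase 1 gene (74.7). JAK-STAT signalling had 2 of 9 beside 0.609, Socs36E (130) and Ptp61F (122), and Hippo signalling 2 of 13 beside 0.757, ex (120) and dco.

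Tissue and cell architecture lists are given with the same background. Neuronal adhesion and guidance had 4 hosts of 46 (8.70%, 3.43 to 20.3%) where length would give 6.19: fz (145 and 90.4), Ten-a (125), kirre and sli (76.3). Patterning factors had 3 of 56 (5.36%, 1.84 to 14.6%), namely ush, chinmo (126) and jing (89.8 and 82.0), where length would give 5.71. Ion channels had KCNQ (140) and Shal (78.0), 2 of 17 beside 2.07 by length, and the neuron list had elav (98.1) and Rbp9 (73.9), 2 of 13 beside 1.31. Actin and adherens junction genes had 4 of 28 beside 2.23, which were the cofilin gene tsr (134), the afadin gene cno (131 and 76.8), the profilin gene chic (89.5) and ena (76.0). Wnt signalling had fz alone of 17 beside 1.61, the haemocyte list ush of 14 beside 0.660, and glia Gs2 (110) of 9 beside 0.271. The salivary gland (13 genes), Hedgehog (10), muscle (14), fat body (10) and gut (15) lists had 0 hosts among their matched symbols, which with the glycolysis and ribosomal protein lists makes 7 of 26. By length class these 5 would have held 0.346, 0.411, 0.897, 0.233 and 0.686, each under 1, so that a count of 0 sets none of them apart. The fat body list also named plin2, which had no match and was not counted, although under the name Lsd-2 it hosted a peak (86.2).

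The peaks lay nearer to a TSS, of the host or of another protein-coding gene, than distal intronic sequence in general. The nearest protein-coding TSS was a median of 2149 bp away (quartiles 1095 and 5288 bp), beside 6611 bp for tiles, the consecutive short windows into which all distal intronic sequence was divided (2571 and 16613). For the 11684 intronic peaks of the relaxed pooled list that met the same rule but were outside the optimal list the median was 3694 bp (1539 and 8626). Of the 335 peaks, 20.9% lay between 0.5 and 1 kb from a TSS (95% interval 16.9 to 25.6%), beside 14.2% of those relaxed peaks and 7.44% of the tiles. Tiles had to lie whole in distal intronic sequence, so none was centred closer than 551 bp to a TSS, while summits began at 504 bp. This lowers the tile share of that class by construction, by an amount that was not measured. Beyond 10 kb lay 10.7% (7.86 to 14.5%), beside 21.1% and 38.0%.

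**Figure D3:**
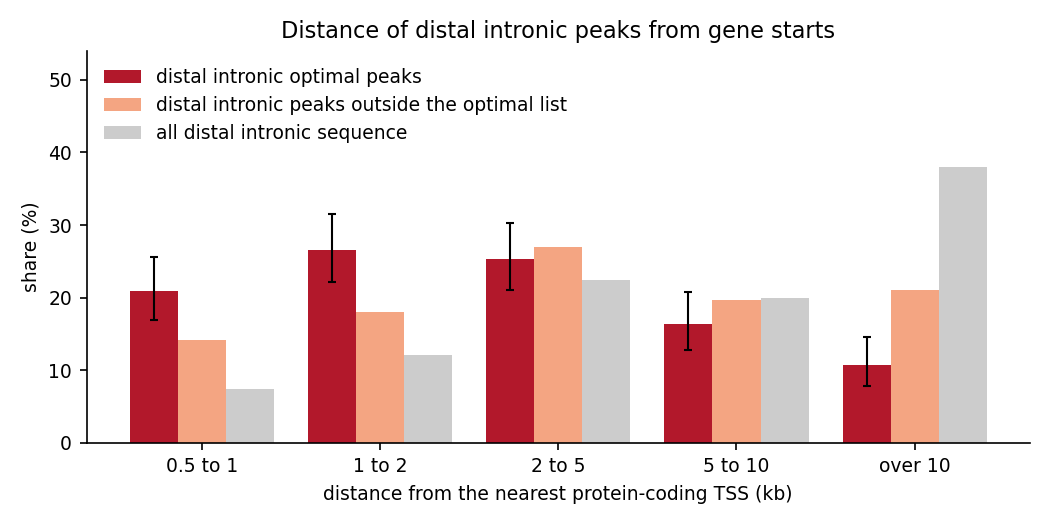
Share, in percent, of distal intronic optimal peaks (with 95% Wilson intervals), of distal intronic relaxed peaks outside the optimal list and of tiles of all distal intronic sequence in 5 classes of distance from the nearest protein-coding TSS in kb. No tile was centred closer than 551 bp to a TSS. The optimal peaks have the highest share of the 3 below 2 kb and the lowest beyond 5 kb.

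The limit of 500 bp cut through a continuous range. The members nearest to a TSS were at Cyp310a1 (504 bp, signal 83.8), Eip63F-1 (508 bp, 129), cbt (509 bp, 367), Kank (512 bp, 79.3) and CG5854 (514 bp, 147). Just inside the promoter class, in introns, were peaks at aru (500 bp, 135), pAbp (500 bp, 131), lola (500 bp, 97.0), CG31523 (499 bp, 104) and jar (495 bp, 160).

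First introns held 179 of the 335 peaks (53.4%, 95% interval 48.1 to 58.7%), counted in the longest transcript of the host that spans the summit. Of the tiles, 30.7% were in first introns, and 41.3% when tiles were weighted to the peaks' classes of TSS distance. In the class of 0.5 to 1 kb the shares were 68.6% of 70 peaks and 54.7% of tiles, and in that of 5 to 10 kb 47.3% of 55 peaks and 30.5% of tiles. In that of 10 to 20 kb they were 18.5% of 27 peaks and 22.3% of tiles, and beyond 20 kb 22.2% of 9 peaks and 10.1% of tiles.

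Many of the peaks lay between alternative starts of their host, downstream of 1 annotated TSS and upstream of another. These were 182 of 335 (54.3%, 49.0 to 59.6%), beside 29.1% of tiles and 38.8% of tiles weighted by TSS distance. The nearest TSS was the host's own for 277 (82.7%, 78.3 to 86.4%), beside 66.7% of tiles and 69.9% of weighted tiles. The other 58 peaks lay nearer to the start of another gene, among them those beside cbt, the Eip78C peak (4112 bp from CG43218) and the KCNQ peak (731 bp from mlt).

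The introns were long, with a median of 10397 bp (quartiles 4086 and 23594), although shorter than those of the tiles (16617 bp). The nearest exon of the same transcript was a median of 2140 bp from the summit (837 and 5046). Starts of non-coding genes lay within 500 bp of 15 peaks (4.48%, 2.73 to 7.26%), and 2 summits lay in an untranslated exon of another gene, cbt and CG33307. Repeat-masked bases made up at least 50% of the window within 50 bp of the summit at 17 peaks (5.07%, 3.19 to 7.98%), beside 13.8% of tiles.

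In the replicates' own relaxed lists, 311 of the 335 peaks had a peak within 100 bp of the summit in both (92.8%, 95% interval 89.6 to 95.1%), beside 91.8% of all 1117 nuclear optimal peaks. Replicate 5 alone matched 18 and replicate 1 alone 5. The 1 peak matched in neither was that of dco, whose signal of 74.7 was near the low end. Of the relaxed intronic peaks outside the optimal list, all of which had lower signals, 19.5% were matched in both. The optimal list was itself derived from both replicates, so these shares describe it and are no independent check.

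Places among the strongest peaks of each replicate were counted next. Of the 335, 242 were among the 1117 strongest peaks of replicate 5 (72.2%, 67.2 to 76.8%) and 247 among those of replicate 1 (73.7%, 68.8 to 78.2%). In both were 169 (50.4%, 45.1 to 55.8%), and in neither 15 (4.48%, 2.73 to 7.26%). The shares in both were 49.8% of promoter peaks (45.9 to 53.6%) and 50.3% of distal peaks outside introns (42.3 to 58.4%), which is the general rate of the list. Summits matched in both replicates lay a median of 32 bp apart (quartiles 14 and 56).

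Ranks leaned towards replicate 1. Over the 311 peaks the median rank was 687 in replicate 5 (quartiles 305 and 1166) and 519 in replicate 1 (264 and 973), and 178 ranked better in replicate 1 (57.2%, 51.7 to 62.6%). The 581 promoter peaks matched in both leaned the other way, with median ranks of 541 in replicate 5 and 622 in replicate 1 and 41.5% better in replicate 1 (37.5 to 45.5%). Distal peaks outside introns had medians of 713 and 511, with 62.4% better in replicate 1 (53.9 to 70.2%). The median log2 ratio of the replicate 1 rank to the replicate 5 rank was −0.35 for the intronic peaks, −0.36 for the distal peaks outside introns and 0.26 at promoters. With 1 library on each side, the replicate cannot be told apart from anything else that differed between the libraries.

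Across the 311 peaks, Spearman's rho between the signals in the replicates was 0.340, and Pearson's r on log10 values was 0.479. This is a description over peaks that share both libraries and a control, and that were chosen on joint strength. At promoters rho was 0.396 over 581 peaks, and outside introns 0.352 over 133.

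**Figure D4:**
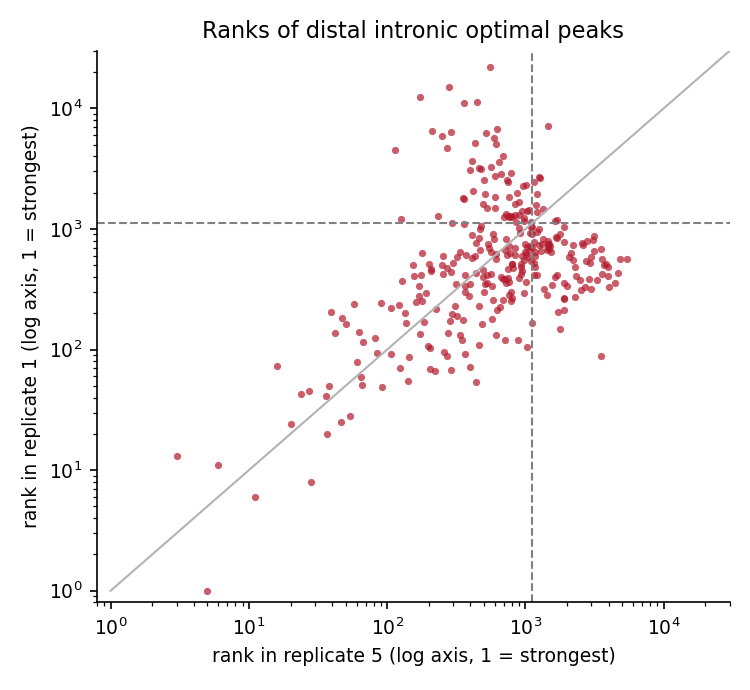
Rank of the matched peak in replicate 5 and in replicate 1, both on log axes with 1 as the strongest, for the 311 distal intronic optimal peaks matched in both (points). Dashed lines mark rank 1117 and the grey line equal ranks. The strongest peaks lie near the line of equal ranks, and the lower-ranked ones spread into 2 arms, strong in one replicate and weak in the other.

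Single genes show the width of that spread. REPTOR had rank 174 in replicate 5 and 12383 in replicate 1, a 71.2-fold ratio. Gbs-70E, a glycogen-targeting subunit of protein phosphatase 1, had ranks of 282 and 15132, and sima, the fly HIF-1 alpha gene, 113 and 4547. The ubiquitin ligase adaptor gene rdx had 553 and 22111, and the autophagy gene Atg18b 358 and 11072.

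In the other direction, fru, the zinc finger gene of sex-specific behaviour, had rank 3506 in replicate 5 and 89 in replicate 1, a 39.4-fold ratio. It was followed by the choline transporter-like gene Ctl2 (4428 and 359), crp, CHES-1-like (1780 and 147) and Myc. The ratios of these 5 ran from 10.9 to 39.4, beside 30.9 to 71.2 for the 5 above.

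CACGTG lay within 50 bp of 2 of 335 (0.597%, 95% interval 0.164 to 2.15%), beside 1.10% of the 524583 tiles, 0.879% of tiles weighted to the peaks' GC content and 2.24% of the windows 500 bp to either side. Both strands were searched. With 2 occurrences the share moved easily. It was 0.300% (0.0530 to 1.68%) when summits in an exon of any gene were left out, or when 1 summit was kept per peak interval. When the 1117 strongest peaks of replicate 5 were taken in place of the optimal list, leaving out replicate 1, it was 1.26% (0.492 to 3.20%), on the other side of the share of tiles. The share was 1.57% at promoter peaks (0.855 to 2.87%), 2.07% at distal peaks outside introns (0.706 to 5.91%) and 1.14% at relaxed intronic peaks. Beside the paired E-box, at the same 2 peaks (0.597%) and 0.162% of tiles, other words of the form CANNTG were at 37.6% of the peaks (32.6 to 42.9%) and in 38.5% of tiles. CAGCTG was at 3.58% (2.06 to 6.16%) and in 3.60% of tiles, and at 5.68% (3.62 to 8.80%) without replicate 1.

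In contrast, ACAGTG, 1 of the 18 words or word groups searched, lay within 50 bp of 40 of 335 summits (11.9%, 8.89 to 15.9%), beside 3.70% of tiles, 3.41% of GC-weighted tiles and 4.78% of flanking windows. Its share was 12.1% at promoters (9.78 to 14.8%) and 10.3% at distal peaks outside introns (6.37 to 16.4%), so that the 3 classes of optimal peaks had like shares. At relaxed intronic peaks it was 5.78% (5.37 to 6.21%). Peaks with it had a median signal of 92.5 (quartiles 82.4 and 106) and those without 98.1 (82.4 and 131). It was at 8.11% of the 111 strongest peaks (4.32 to 14.7%) and at 14.2% of the 113 weakest (8.91 to 21.8%).

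The word was densest beside the summit, not on it. Between 50 and 100 bp from the summit there were 70 occurrences, which is 2.09 per kb, beside 42 (1.25 per kb) within 50 bp, 50 (1.49 per kb) between 100 and 150 bp and 0.395 per kb over all distal intronic sequence. From 300 bp on, the density was between 0.299 and 0.478 per kb. At promoter peaks the densities were 1.30 per kb within 50 bp, 1.46 between 50 and 100 bp and 0.958 between 100 and 150 bp. At distal peaks outside introns they were 1.17, 1.72 and 1.24 per kb. Each class of optimal peaks thus had its highest density between 50 and 100 bp. In windows reaching 100 bp to either side, 27.2% of the intronic peaks held it (22.7 to 32.2%), beside 10.4% of windows of the same length centred 500 bp away. Such windows held it at 23.7% of promoter peaks (20.6 to 27.2%) and 24.1% of distal peaks outside introns (17.9 to 31.7%).

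Its neighbours were not evenly spread either. Counted over the 40 occurrences that lie whole within 50 bp of a summit (the 42 above were placed by the centre of the word), the base just before the word was C in 57.5%, the base before that G in 65.0%, and the base just after it G in 62.5%. Over all 21855 occurrences in distal intronic sequence the same bases made up 29.4%, 27.2% and 31.3%. The sequences at CG32767 and CHES-1-like printed above have all 3 of these neighbours, and that at CG17834 has none.

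A search of all hexamers, merged over strands and set against GC-weighted tiles, put ACAGTG first with a rise of 8.53 percentage points. These hexamers were picked on the same windows, so their rises are descriptions. The count of ACAGTG given above was read from those windows too, so its first place here is no separate check. Overlapping words followed, CTGTGC (11.3% beside 3.57%), CAGTGG (10.1% beside 3.47%) and ACTGTG (9.85% beside 3.46%). The fifth, CTGTAC, was at 7.76% of the peaks, 2.11% of tiles and 3.14% of promoter peaks. The next were ATCTTA (11.3% beside 5.87%), ACTGTA (8.66% beside 3.70%), GCTTAA (11.6% beside 6.94%), AAGAAA (21.2% beside 16.7%) and TACAAA (16.7% beside 12.3%). The 5 largest falls were those of GGCAAA (4.18% beside 9.26%), CCAAAA (8.66% beside 13.3%), TGGAAA (7.16% beside 11.6%), AAAGCC (1.79% beside 6.21%) and AAAATA (24.5% beside 28.8%).

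The other searched words showed no single pattern. TTAAAA was at 23.3% of the intronic peaks (19.1 to 28.1%) and in 16.1% of their flanks, but in 23.8% of GC-weighted tiles. TATCGATA, the DNA replication-related element, was at 0.597% (0.164 to 2.15%) beside 4.40% of promoter peaks (3.06 to 6.28%). GAGAG, the site of GAGA factor, was at 13.4% (10.2 to 17.5%), beside 18.5% of flanks and 9.85% of GC-weighted tiles. GCCAT, the core of the site of the Polycomb recruiter Pho, was at 11.9% (8.89 to 15.9%) beside 16.9% of GC-weighted tiles and 18.8% of promoter peaks. GGAATG, the site of the Hippo pathway factor Scalloped, was at 1.79% (0.823 to 3.85%) beside 4.34%. AGGTCA, a site of nuclear receptors, was at 3.28% (1.84 to 5.78%) beside 2.41%.

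For 6 more searched words or word groups the interval of the share at intronic peaks held that of GC-weighted tiles. Among the rarer ones, CAGGTAG was at 0.299% of the peaks beside 0.380%, GGTCACA at 0.299% beside 0.589%, TGACGTCA at 0% beside 0.117%, and TGAGTCA at 1.19% beside 0.862%. The GATA words TGATAA or AGATAA were at 15.5% beside 14.6%, and the forkhead words TGTTTAC or TATTTAC at 6.87% beside 5.80%. The remaining word, TTGCGCAA, was at 3 peaks (0.896%, 0.305 to 2.60%) beside 0.176% of GC-weighted tiles.

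GC content had a narrow trough at the summit between raised shoulders. Within 50 bp of the summit it averaged 36.8% (SD 9.25 over 335 peaks), beside 41.3% in windows 500 bp away, 40.2% in tiles, 38.2% at promoter peaks and 39.4% at relaxed intronic peaks. In 25 bp windows the mean was 35.1% at the summit (SEM 0.712), 37.8% at 50 bp to its left on the plus strand and 39.9% at 50 bp to its right. It rose to 44.4% and 45.4% at 200 bp to the left and the right, and was back at 41.1% and 40.3% at 1000 bp. At promoter peaks the trough was wider, with 37.8% at the summit and 39.2% and 40.4% at 100 bp, where the intronic peaks were at 43.1% and 43.3%. Distal peaks outside introns averaged 37.5% within 50 bp and had a like trough, with 36.6% at the summit. To the left and right they had 41.5% and 41.7% at 100 bp, 44.9% and 44.5% at 150 bp, and 41.9% and 42.8% at 1000 bp. The narrow trough was thus not particular to intronic peaks.

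**Figure D5:**
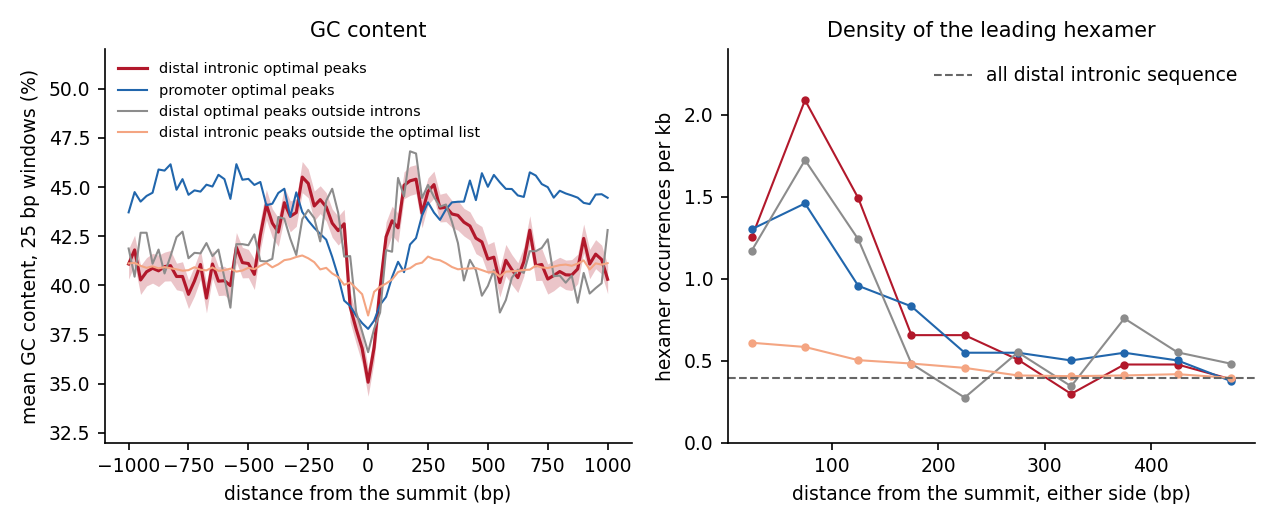
Mean GC content in 25 bp windows by distance from the summit (left, in percent, shaded SEM for the 335 distal intronic peaks) and occurrences of ACAGTG per kb by distance to either side (right), for 4 classes of peaks, with the density in all distal intronic sequence (0.395 per kb) as a dashed line. The intronic peaks fall to 35.1% GC at the summit, and their density of the hexamer is highest between 50 and 100 bp from it.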

How the data were processed

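ChIP-seq peak lists of 2 biological replicates of whole larvae were used. Per the text files deposited with them, the relaxed list of each replicate (peaks with background) was made from its dm6 alignments and a control, the pooled relaxed list from both, and the optimal list from these lists. The deposited signal value of a peak is the authors' own, on a scale that the files do not name, and it served to rank peaks within a list. The sources used here do not give the aligner, peak caller or threshold. The control and the dm3 lists were not analysed here, and read depth is unknown.

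Peak ends lay within the arms of the Release 6 reference. Annotation was Ensembl release 115 (BDGP 6.54). Matched peaks had summits within 100 bp. Windows reached 50 bp to either side of the summit. The background was a full count of the 524583 tiles of that length that fit whole into distal intronic sequence, also weighted to the peaks' GC content in classes of 5 percentage points. Shares have 95% Wilson intervals. No test was made, since 1 group holds 2 samples and peaks are not replicates. Gene lists held 11 symbols with no single match, which were left out. Among them, Dl and plin2 are host genes under the names Delta and Lsd-2. Named genes were hosts of the 25 strongest peaks, hosts with 3 or more, up to 4 per list (more where the whole list is given), peaks with an E-box and the 5 largest rank ratios each way. The members and lists were chosen with earlier results of these data known. Scripts were tested on simulated data and used Python 3.11.15, NumPy 2.4.6 and SciPy 1.17.1. Columns of unmapped samples numbered 0.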

Additional observations from a re-analysis of the deposited data

How the results depend on the processing

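Of 148 values recomputed under other choices, 118 stayed within 1.5 times the count or within the interval of the main value, and 30 did not. Taking the 1117 strongest pooled peaks gave the main value in every result recomputed, such as 335 peaks in 280 hosts. Its values count among the 118, although this setting was no separate check. With a TSS distance of 2000 bp, 176 peaks (15.8% of summits) in 143 hosts were found, 31 hosts had 2 or more, 43.2% lay in first introns and 0% held CACGTG; distances of 200 and 1000 bp gave 36.8% and 23.7% of summits. In the strongest 558 optimal peaks there were 166 members in 159 hosts, 12 of them with 2 or more, with a median signal of 130, 96.4% matched in both replicates, a GC content of 35.6% and ACAGTG at 8.43%. Matching within 50 or 250 bp gave 71.9% and 99.4% matched in both. Windows of 25 and 100 bp gave GC contents of 35.7% and 38.9%, ACAGTG at 2.99% and 27.2% and TTAAAA at 16.1% and 37.9%, and 100 bp gave CAGCTG at 8.36%; longer windows hold more words by construction. The 1117 strongest peaks of single replicates gave 28.4% to 34.1% members, 80.8% to 86.6% matched in both, 36.4% to 38.1% GC, and median signals of 42.5 to 62.1, on each list's own scale. The cause of the other changes was not tested. No paired analysis was possible because there is 1 group. Peaks of few reads cannot be told from background without read depths.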
